A study of Mus musculus with 8 samples.

Results

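The chromatin remodelling and bromodomain genes are the mouse genes that encode the ATPases and accessory subunits of the SWI/SNF, ISWI, CHD and INO80 families, together with proteins of the Brd, Brpf, Brwd, Baz and Arid families. They were chosen by gene symbol alone (symbols that begin with Smarc, Chd, Arid, Brd, Baz, Brwd, Ino80, Actl6 or Brpf followed by the family's member number or letter where one is used, and Bptf, Ep400, Srcap, Hells and Atrx). The rule uses no measured value, though it was written with earlier results of these data known. It gave 109 distinct transcripts of 52 genes, out of 19077 distinct transcripts of 12200 genes in 3 deposited tables.

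RNA was sequenced from testis cells of 4 Tdrd6-/- and 4 Tdrd6+/- mice, all C57BL/6 and 26 days old. TDRD6 is a Tudor domain protein and a structural component of the chromatoid body, an RNA-rich granule in the cytoplasm of round spermatids, and the comparison asks which transcripts differ in level when it is missing. The Tdrd6+/- animals are the controls, and they carry the targeted allele too. That allele places the human surface marker hCD4 under the start codon of Tdrd6, so in both genotypes the cells were pulled out with magnetic beads against hCD4 and were enriched in round spermatids rather than pure. Each transcript has 1 deposited value per genotype, in FPKM (fragments scaled to transcript length and to the size of the library), which the authors formed over the 4 animals. With values pooled in this way, the differences below have no replicate spread and no test. In RNA from a mixed preparation, fewer cells of a type and less RNA per cell cannot be told apart.

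Chromatin remodellers are multi-subunit machines in which an ATPase of the SNF2 type slides, evicts or exchanges nucleosomes, while the other subunits bind histones, DNA or the ATPase itself. Bromodomains are small folds that bind acetylated lysines, most of them on histone tails, and many remodellers contain them. In spermatids these activities are of interest because histones are acetylated and then replaced by transition proteins and protamines as the nucleus condenses, a process in which the testis-specific bromodomain protein BRDT and the ATPase CHD5 are known to act in the mouse.

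The labels were checked on Tdrd6 itself. Its main transcript had an FPKM of 40.6 in Tdrd6+/- and 1.29 in Tdrd6-/-, and the next 16.02 and 0.174. All 12 genes of a list of round spermatid and acrosome markers were measured, each at an FPKM of at least 56.2 in either genotype. Their summed FPKM was 3587 in Tdrd6+/- and 2699 in Tdrd6-/-. Over 27 transcripts of these genes the median log2 ratio of Tdrd6-/- over Tdrd6+/- was -0.42, and 2 of them had a ratio above 0. All 10 spermatocyte markers were measured as well, with sums of 1032 and 1026 that are set largely by Pgk2 (565 and 468). Over 15 transcripts of that list the median log2 ratio of Tdrd6-/- over Tdrd6+/- was 0.25, and 11 of them had a ratio above 0, among them Piwil1 (68.6 and 98.5) and Sycp1-201 (9.49 and 12.9). The spermatocyte list was thus higher in Tdrd6-/- at its median. Markers of spermatogonia (6 of 7 measured) summed to 8.10 and 7.11, those of Sertoli cells (3 of 6) to 29.0 and 28.5, those of Leydig cells (5 of 5) to 27.8 and 26.6, and the only measured blood marker, Lyz2, stood at 0.497 and 0.770. The 10 late spermatid genes, which include the protamines and transition proteins, summed to 22680 in Tdrd6+/- and 7188 in Tdrd6-/-, or 3.81% and 1.45% of all listed FPKM. Most of both sums came from Prm1 (5521 and 1162), Prm2 (2592 and 714), Tnp1 (6466 and 1840) and Tnp2 (5073 and 1254). Over 17 transcripts of that list the median log2 ratio was -0.56, and 4 of them had a ratio above 0. Oaz3 had 713 and 377, Smcp 279 and 235, and Odf2-009 656 and 657. All listed FPKM together summed to 595632 and 494391. The part of these marker levels in the differences between genotypes described here was not tested.

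The ratio of a transcript is given below as log2 of its FPKM plus 0.1 in Tdrd6-/- over its FPKM plus 0.1 in Tdrd6+/-, so a positive value means a higher level in Tdrd6-/-. Transcripts with a mean FPKM of at least 1 over both genotypes were compared, which kept 83 of the 109 transcripts and 47 of the 52 genes. Of these 83, 12 transcripts were at least 1.5-fold higher in Tdrd6-/- (14.5%) against 7.96% of all 14887 transcripts compared. None was 1.5-fold lower, against 8.78% of all. Among the 12, Chd1-002 (0.719 and 1.32) and Smarcc1-001 (0.870 and 1.54) were below an FPKM of 1 in Tdrd6+/-. They passed the filter only through their value in Tdrd6-/-. With a looser bound, a log2 ratio of 0.32 in either direction, 43 of the 83 were higher (51.8%) against 21.8% of all, and 3 were lower (3.61%) against 22% of all. The ratio was above 0 for 60 of the 83 (72.3%) against 50% of all. Their median ratio was 0.33, in a range from -0.48 to 1.23, beside a median of 0.00 over all transcripts compared. The differences were thus mostly under 1.5-fold, and those past either bound were nearly all toward higher values in Tdrd6-/-. If the values were scaled to equal sums of all listed FPKM, the members' ratios would be higher by 0.25 to 0.27, the median of all transcripts would be 0.27, and 16 of the 23 ratios below 0 would lie above 0. A further 10 transcripts lay between 1.4-fold and 1.5-fold higher, so the count of 12 depends closely on where the bound is set.

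Many transcripts of the same gene overlap and their values are then not independent, so the FPKM of all listed transcripts of each gene was also summed. Of 49 genes whose summed FPKM averaged at least 1, 6 were 1.5-fold higher in Tdrd6-/- (12.2%) against 4.53% of all genes, and none was lower, against 6.62%. The 6 genes were Chd3, Baz2a, Bptf, Smarcc1, Smarca2 and Chd4. The median ratio over the 49 genes was 0.33, beside 0.00 over all genes.

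**Figure D1:**
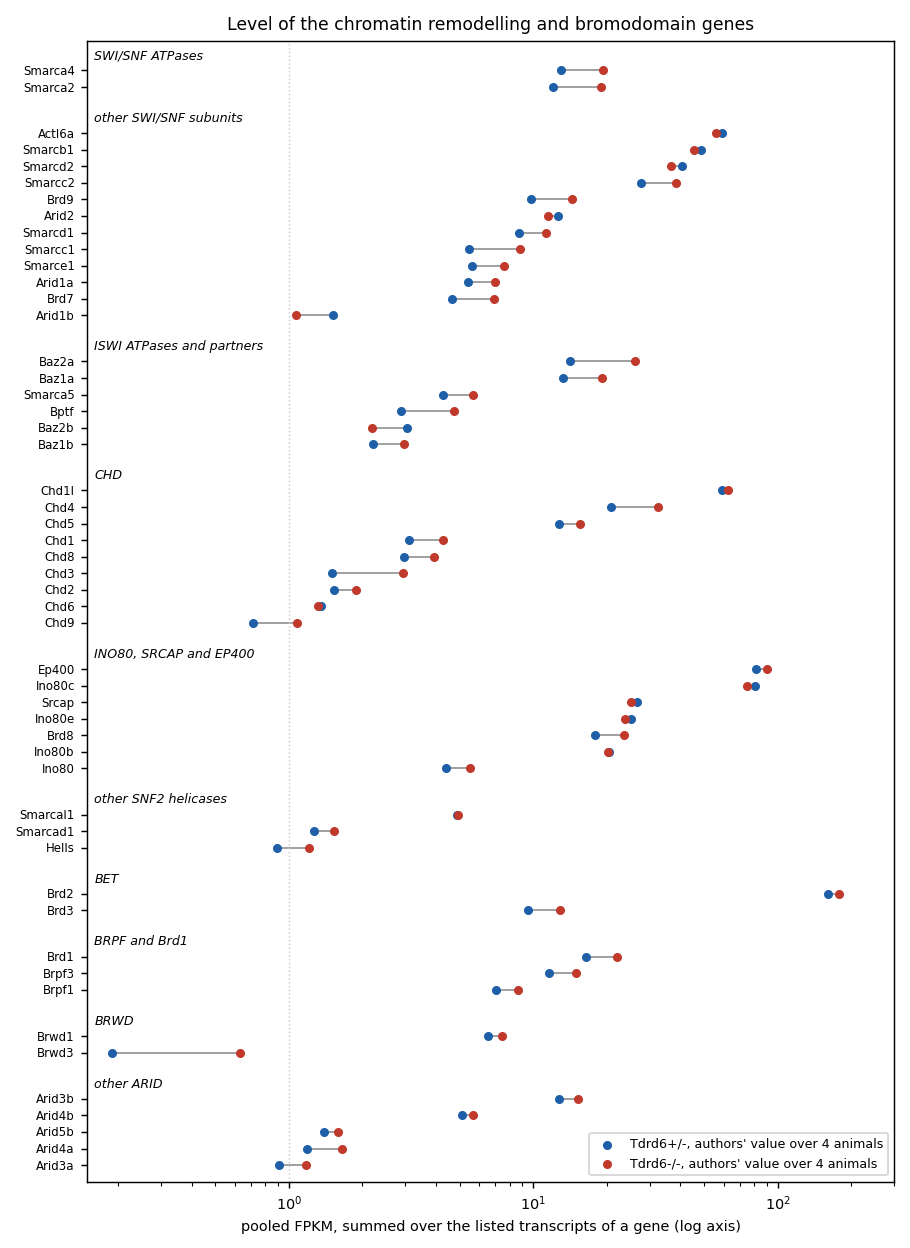
Summed FPKM of 51 of the 52 genes on a log axis, with Tdrd6+/- in blue and Tdrd6-/- in red, grouped by complex or family and ordered by level within a group. Each point is the authors' value over 4 animals, so no error can be drawn, and the dotted line marks an FPKM of 1. The widest gaps above that line belong to genes such as Chd3 (1.51 and 2.92) and Baz2a (14.1 and 26.0), while the most abundant gene, Brd2, stood at 161 and 178.

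**Figure D2:**
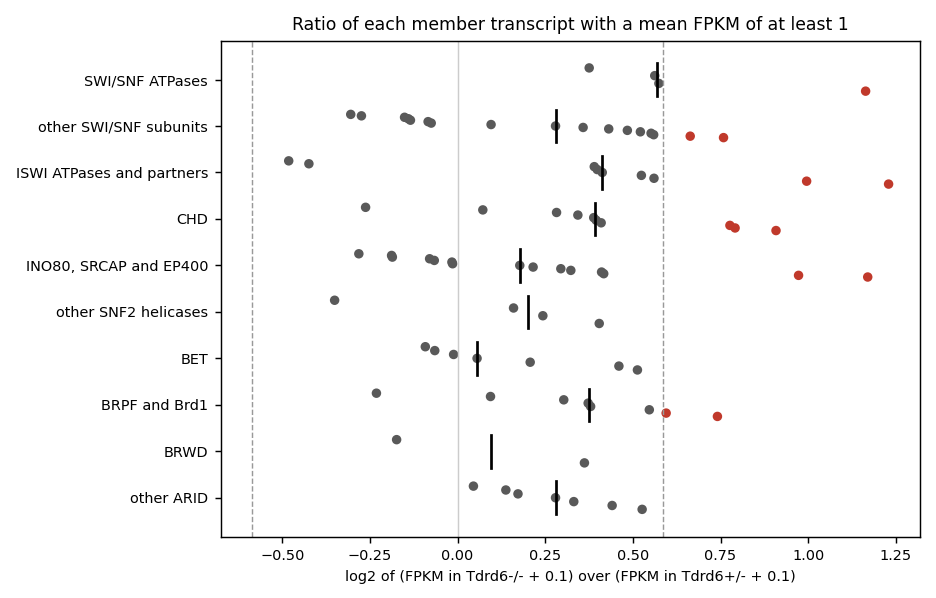
Log2 ratio of Tdrd6-/- over Tdrd6+/- for the 83 transcripts with a mean FPKM of at least 1, 1 point per transcript, by complex or family. Black bars are the medians of each group, dashed lines mark 1.5-fold in either direction, and the 12 red points lie beyond the upper line while no point lies beyond the lower one.

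The SWI/SNF complexes, known as BAF and PBAF in mammals, are built around 1 of 2 ATPases, SMARCA2 or SMARCA4. Smarca2 summed to 12.1 FPKM in Tdrd6+/- and 19.0 in Tdrd6-/-, a ratio of 0.65. It has 2 listed transcripts, and the one that was 1.5-fold higher (ENSMUST00000176030, not in the annotation used for lengths) had 3.37 and 7.68, a ratio of 1.16, while Smarca2-201 had 8.71 and 11.3. Smarca4 summed to 12.9 and 19.2, a ratio of 0.57 that lies just under the 1.5-fold bound of 0.58. Its transcripts Smarca4-003 (11.9 and 17.7) and Smarca4-202 (0.986 and 1.52) had ratios of 0.56 and 0.57. Both ATPases were therefore higher by a like amount, and the share of Smarca2 in their joint level was 48.3% in Tdrd6+/- and 49.7% in Tdrd6-/-.

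The scaffold subunits of these complexes, SMARCC1 and SMARCC2, also had higher values in Tdrd6-/-. Smarcc1 summed to 5.47 and 8.86, a ratio of 0.68, with Smarcc1-002 at 3.85 and 6.15 and Smarcc1-001 at 0.870 and 1.54. Smarcc2, the more abundant of the pair, summed to 27.6 and 38.2, a ratio of 0.47. Its main transcript Smarcc2-203 had 18.8 and 26.3, and Smarcc2-202 had 8.17 and 11.8. Smarcc1 made up 16.6% of the pair in Tdrd6+/- and 18.8% in Tdrd6-/-.

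Among the smaller core subunits, Smarcb1, Actl6a and Smarcd2 were nearer to equal, while Smarcd1 and Smarce1 were higher in Tdrd6-/-. Smarcb1, a subunit that contacts the nucleosome, had 40.7 and 38.4 in its main transcript Smarcb1-002 and 7.63 and 6.86 in Smarcb1-001. Actl6a, an actin-related protein shared with the INO80 and EP400 complexes, had 59.2 and 56.2, a ratio of -0.08. All 3 transcripts of Smarcd2 had ratios below 0, the main one, Smarcd2-001, with 36.8 and 33.4. Its paralog Smarcd1 had 8.76 and 11.3, a ratio of 0.36, and made up 17.7% of the pair in Tdrd6+/- and 23.5% in Tdrd6-/-. Smarce1, which binds DNA through an HMG box, had 5.60 and 7.59, a ratio of 0.43.

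Among the subunits that tell the SWI/SNF assemblies apart, Brd9, of the non-canonical form, had 9.79 in Tdrd6+/- and 14.4 in Tdrd6-/-, a ratio of 0.55. Brd7, of PBAF, had 4.65 and 6.91, a ratio of 0.56. Arid2, the other PBAF subunit of the list, pointed the other way with 12.6 and 11.5, a ratio of -0.13. Arid1a, the usual DNA-binding subunit of BAF, summed to 5.41 and 6.96, and its close paralog Arid1b to 1.51 and 1.07. The transcripts that carry that contrast are low, since Arid1a-002 (2.39 and 2.92) and Arid1a-001 (3.02 and 3.23) differed little and Arid1a-201 was listed at 0.00102 and 0.815. For all 17 transcripts of SWI/SNF subunits other than the ATPases, the median ratio was 0.28, with 2 of them 1.5-fold higher. That is 11.8%, against 7.96% of all transcripts compared.

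ISWI remodellers pair a single small ATPase with large partners that carry bromodomains. Baz2a, the partner in the complex that silences ribosomal DNA, had the highest ratio of any member transcript compared: Baz2a-203 had 5.78 FPKM in Tdrd6+/- and 13.7 in Tdrd6-/-, a ratio of 1.23. Its second transcript, Baz2a-201, had 8.35 and 12.4, a ratio of 0.56, and the 2 summed to 14.1 and 26.0. Bptf, the largest NURF subunit, which reads methylated and acetylated histone tails, summed to 2.86 and 4.76. Baz1a, the partner in the ACF complex, which in the mouse is needed for normal spermiogenesis, had 13.3 and 19.1, a ratio of 0.52. Smarca5, the ATPase itself, had 4.26 and 5.65, and Baz1b 2.20 and 2.96. Baz2b was the exception of the group, with Baz2b-203 at 1.56 and 1.09 and Baz2b-001 at 1.497 and 1.09, ratios of -0.48 and -0.42 that are the lowest of all 83 transcripts. Over the group of 9 transcripts the median ratio was 0.41 and the summed FPKM was 39.8 and 60.7.

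Most proteins of the CHD family bear paired chromodomains (CHD1L lacks them), and CHD3, CHD4 and CHD5 are alternative ATPases of the NuRD complex, which joins remodelling to histone deacetylation. Chd4 was the most abundant of these 3 in both genotypes, at 20.9 and 32.5 FPKM. Its main transcript Chd4-003 had 12.3 and 21.2, a ratio of 0.78, and Chd4-002 had 8.06 and 10.6, a ratio of 0.39. Chd3 had the highest ratio of the 49 gene sums compared, 0.91, from 1.51 and 2.92 FPKM in its only listed transcript. Chd5 summed to 12.7 and 15.6, a ratio of 0.30. The share of Chd5 in the 3 was 36.2% in Tdrd6+/- and 30.6% in Tdrd6-/-, while that of Chd4 was 59.5% and 63.7%.

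Outside NuRD, Chd1, a remodeller of transcribed genes, had 1.82 and 2.34 in Chd1-001 and 0.719 and 1.32 in Chd1-002, the second with a ratio of 0.79. Chd8, a repressor of beta-catenin target genes, had 2.97 and 3.94, and Chd2 had 1.52 and 1.87. Chd1l, which is activated by poly(ADP-ribose) in DNA repair, was the most abundant CHD gene and nearly equal, at 59.3 and 62.3. Chd6 and Chd9 were each below an FPKM of 1 in every listed transcript. Of the 10 CHD transcripts compared, which have a median length of 7589 nt, 9 had a ratio above 0 and 3 were 1.5-fold higher. Among all transcripts of 6000 to 8000 nt, the range that holds this median, 86.4% had a ratio above 0 and 20.1% were 1.5-fold higher. The 10 are not all of that length and run from Chd1-002 (1812 nt) to Chd5-201 (9486 nt). Up to 2000 nt 4.48% of all transcripts were 1.5-fold higher, and above 8000 nt 24.2%.

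INO80, SRCAP and EP400 are the split-ATPase remodellers, which exchange variant histones. Ino80, the ATPase, had 4.40 and 5.54, a ratio of 0.32, while its accessory subunit Ino80b had 20.4 and 20.2. Ino80c summed over 3 transcripts with unlike ratios: Ino80c-003, at 51.9 and 42.7, had -0.28, Ino80c-001, at 26.2 and 29.6, had 0.18, and Ino80c-004 had 2.55 and 2.41. The main transcript of Ino80e, Ino80e-002, had 23.1 and 22.0. Brd8, the bromodomain subunit of the EP400 and TIP60 complex, had 13.0 and 17.4 in Brd8-003 and 4.07 and 5.01 in Brd8-008. The summed FPKM of the group was 256 and 263, a ratio of 0.04, while the median ratio over its 15 transcripts was 0.18.

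Ep400 shows why the sum and the transcripts differ. Its transcript Ep400-003, which at 3399 nt is the short one of 5, held 80.8% of the gene's FPKM in Tdrd6+/- and 71.8% in Tdrd6-/-, and had 65.7 and 65.0. Ep400-002, at 10608 nt, had 6.84 and 15.5, a ratio of 1.17. Ep400-201, at 10909 nt, had 2.23 and 4.48, a ratio of 0.97. Ep400-001, at 10685 nt, had 5.66 and 4.96, a ratio of -0.19. The gene sum was 81.3 and 90.5. Srcap showed the same arrangement in smaller measure, since the short Srcap-202 (1257 nt) had 21.7 and 19.0, Srcap-203 had 2.63 and 3.06, and the longest listed one, Srcap-201 (4545 nt), had 2.16 and 2.92.

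**Figure D3:**
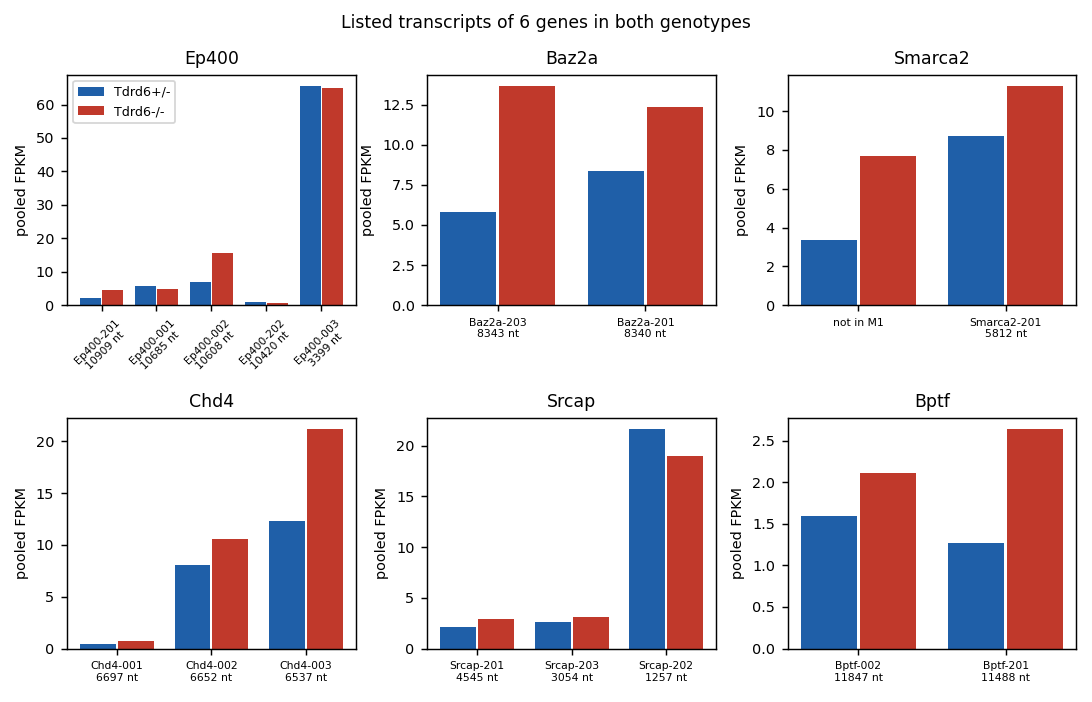
Pooled FPKM of every listed transcript of 6 genes, with Tdrd6+/- in blue and Tdrd6-/- in red. Transcripts are ordered from long to short within each panel, except that Smarca2 ENSMUST00000176030, which has no length in the annotation used, is drawn first. The y axis starts at 0 and differs between panels. For Ep400 and Srcap the tall bars of the shortest transcript were near-equal or lower in Tdrd6-/- (65.7 and 65.0, 21.7 and 19.0), while for Baz2a, Smarca2, Chd4 and Bptf all bars were higher.

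In 9 genes there were 15 pairs of transcripts whose ratios differed by at least 0.5. Some of these, such as Ep400-002 and Ep400-003 or Brwd1-001 and Brwd1-003, share only the smaller part of the longer transcript, and others differ over few bases. The 2 Baz2a transcripts share 8340 bases and differ by 3 bases at the start of a coding exon, where the annotation has 2 acceptor sites next to each other. Ep400-002 and Ep400-001 share 10495 bases, with 113 present only in the first and 190 only in the second. The junctions that separate such pairs are shown here because the pairs differ only at them and at the bases counted in this way. All lie within the coding sequence in GENCODE M1 on mm9, are printed 5′ to 3′ along the transcript, and have the 15 bases after the junction in capitals. The introns removed are chr10:127549824-127550515 and chr10:127549824-127550518 on the plus strand for Baz2a, and chr5:111169309-111170988 and chr5:111168701-111170988 on the minus strand for Ep400.
Baz2a-203: actctctggcagcagCAGAGCCAGTGAGTG
Baz2a-201: actctctggcagcagAGCCAGTGAGTGGCA
Ep400-002: tgatgccacccacagAGCAGTCTAAGAGAC
Ep400-001: tgatgccacccacagGAGGGATGCCCCCAA

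In the Baz2a pair the form that keeps the additional CAG had the higher ratio (1.23 against 0.56). In the Ep400 pair the form with the additional short exon had the higher ratio (1.17 against -0.19). How far the split of reads between such transcripts can move with the estimate cannot be told from 1 value per genotype.

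Bptf, Brpf1 and Chd5 gave like pairs. Bptf-201 had 1.28 and 2.64, a ratio of 1.00, and Bptf-002 had 1.59 and 2.11, a ratio of 0.39. Brpf1-002 had 1.504 and 2.58, a ratio of 0.74, and Brpf1-004 had 1.44 and 1.54, a ratio of 0.09. Chd5-001 had 10.1 and 13.5, a ratio of 0.41, and Chd5-201 had 2.58 and 2.13, a ratio of -0.26. Each pair uses a shared donor site and different acceptor sites at the junctions below, in the same layout. The introns are chr11:106939113-106939833 and chr11:106939083-106939833 on the minus strand for Bptf, chr6:113268716-113269034 and chr6:113268716-113269031 on the plus strand for Brpf1, and chr4:151759706-151760057 and chr4:151759706-151759832 on the plus strand for Chd5.
Bptf-201: ccagtgaagcaccagGTTTGGAAACAGAAA
Bptf-002: ccagtgaagcaccagGTGACAGGGTACGGC
Brpf1-002: accacactgaagatgTAGAGGAAGAACGGC
Brpf1-004: accacactgaagatgCAGTAGAGGAAGAAC
Chd5-001: cccaccatccagcagACATCTAGCCGTCGT
Chd5-201: cccaccatccagcagGGCGCTTTCGGCTCC

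At this junction the Brpf1 transcripts again differ by a CAG at neighbouring acceptor sites, and here the form without it had the higher ratio. The 2 Brpf1 transcripts differ at other places too, with 222 bases present only in Brpf1-002 and 267 only in Brpf1-004. Bptf-201 and Bptf-002 do as well, with 32 bases only in the first and 391 only in the second. Further coding junctions that are not printed differ between the 2 Bptf transcripts. Chd5-201 has 364 bases that Chd5-001 lacks, not all of them at the printed junction.

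The BET proteins bind acetylated histones through paired bromodomains and recruit the transcription machinery. Brd2 was the most abundant of all 52 genes, with a summed FPKM of 161 in Tdrd6+/- and 178 in Tdrd6-/-, a ratio of 0.15. Most of it was Brd2-005, at 116 and 134. Brd2-001 had 31.4 and 31.2, Brd2-201 had 7.23 and 7.52, and Brd2-002 had 6.26 and 5.87, so the 4 transcripts were close to equal. Brd3 summed to 9.47 and 12.9, a ratio of 0.44, through Brd3-202 (6.62 and 9.48) and Brd3-002 (1.44 and 2.02), with Brd3-001 at 1.42 and 1.35. Brdt, whose symbol lies outside the rule, summed to 148 and 157, with Brdt-003 at 140 and 144 and Brdt-001, which has the longer 3′ UTR, at 8.23 and 13.8. Brd2 and Brdt together thus made up nearly all BET transcript in both genotypes, at 50.4% and 46.5% in Tdrd6+/- and 51.1% and 45.01% in Tdrd6-/-.

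The BRPF proteins and BRD1 are scaffolds of histone acetyltransferases. Their 8 transcripts had a median ratio of 0.38, and 2 of them, Brd1-001 (3.53 and 5.38, a ratio of 0.59) and Brpf1-002, were 1.5-fold higher. That is 25%, against 7.96% of all transcripts compared and 13.6% of those from 4000 to 6000 nt, where the family's median length lies. The other Brd1 transcripts, Brd1-203 (7.33 and 9.57) and Brd1-002 (4.67 and 5.78), had ratios of 0.38 and 0.30. Brpf3 had 11.6 and 15.02, a ratio of 0.37. Brpf1-201 had 1.66 and 2.48, and Brpf1-003, at 2.45 and 2.08, had a ratio of -0.23.

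The remaining families held no transcript that was 1.5-fold higher, against 7.96% of all transcripts. They are small, with 2 BRWD, 4 other SNF2 and 7 other ARID transcripts compared. Brwd1, which in the mouse is required for normal sperm formation, had 2.80 and 3.62 in Brwd1-001 and 2.28 and 2.01 in Brwd1-003. Of the other SNF2 helicases, Hells, which supports DNA methylation, had 0.893 and 1.21, Smarcad1 had 1.27 and 1.53, and Smarcal1-001, from a gene for an annealing helicase of stalled replication forks, had 3.37 and 3.78. The short Smarcal1-010 (542 nt) had 1.49 and 1.15, a ratio of -0.35. All 7 transcripts of the other ARID genes had a ratio above 0, from 0.05 to 0.53, against 50% of all transcripts. From 4000 to 6000 nt, where their median length lies, 75.4% of all transcripts had a ratio above 0. Arid3b-001 was the highest of the 7 in level, at 9.64 in Tdrd6-/- and 8.75 in the control.

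When the 18 genes of SNF2-type ATPases were set apart, 17 had a summed FPKM that averaged at least 1, and 15 of these had a ratio above 0. Their median ratio was 0.32, in a range from -0.08 to 0.91, with 3 genes 1.5-fold higher (Smarca2, Chd3 and Chd4) and 9 above a ratio of 0.32. Over all gene sums, 50.1% had a ratio above 0, 4.53% were 1.5-fold higher and 19.5% were above 0.32. A contrast chosen after the values were seen is that with 8 small core subunits (Smarcb1, Smarcd1, Smarcd2, Smarce1, Actl6a, Ino80b, Ino80c and Ino80e), for which 2 of 8 had a ratio above 0 and the median was -0.08. The transcripts of these groups also differ in length, with medians of 6234 nt for the ATPases and 1966 nt for the small subunits. Among all single transcripts of 6000 to 8000 nt, 86.4% had a ratio above 0, 20.1% were 1.5-fold higher and the median was 0.36. Up to 2000 nt, 29.3% of all transcripts had a ratio above 0, with a median of -0.21. The part of length in this contrast was not tested.

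Length went along with the ratio throughout the tables. The member transcripts compared had a median length of 4585 nt against 2231 nt over all transcripts, and the median ratio of all transcripts was -0.21 up to 2000 nt, 0.08 from 2000 to 4000 nt, 0.25 from 4000 to 6000 nt, 0.36 from 6000 to 8000 nt and 0.40 above 8000 nt. Medians of the members in the same ranges were -0.08 (14 transcripts), 0.25 (18), 0.38 (25), 0.39 (11) and 0.40 (13). In the 2 longest ranges the members' medians were thus within 0.1 of those of all transcripts, and in the 3 shorter ranges they were above them by more than that. The share of members that were 1.5-fold higher was 7.14% against 4.48% of all transcripts up to 2000 nt, 5.56% against 7.82% from 2000 to 4000 nt, 12% against 13.6% from 4000 to 6000 nt, 18.2% against 20.1% from 6000 to 8000 nt and 30.8% against 24.2% above 8000 nt. It was thus below the share of all transcripts in the 3 middle ranges, and above it in the shortest and the longest. Within ranges of length the members were thus closer to the other transcripts than the overall medians of 0.33 and 0.00 are to each other.

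**Figure D4:**
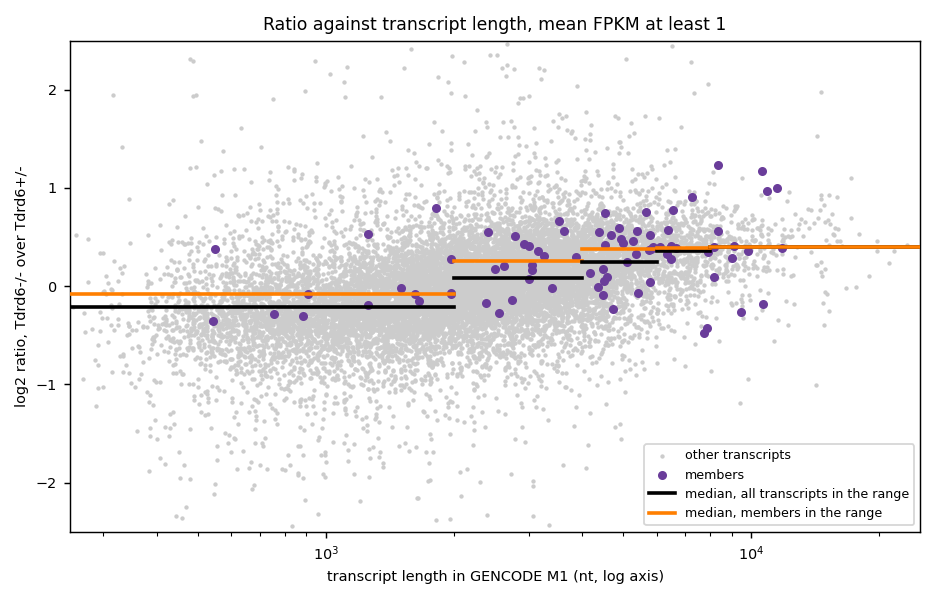
Log2 ratio of Tdrd6-/- over Tdrd6+/- against transcript length on a log axis, for transcripts with a mean FPKM of at least 1 and a length in GENCODE M1. Members are purple, all other transcripts are grey (a few lie beyond the axes), and bars give the medians per length range, black for all transcripts and orange for members. Black bars climb from -0.21 in the shortest range to 0.40 in the longest, where the orange bar lies at 0.40 too.

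The authors' tables sort transcripts by the length of the 3′ UTR, into a short table with at most 350 nt, a long one with more than 1500 nt and a medium one between them. Of the 109 member transcripts, 24.8% were in the short table, 48.6% in the medium and 29.4% in the long one, against 40.8%, 41.4% and 22.0% of all transcripts, and 3 members were in 2 tables. Median ratios of the members compared were 0.12, 0.39 and 0.36 in the short, medium and long tables, and those of all transcripts -0.14, 0.02 and 0.20. The members' median was thus above that of the whole table in each of the 3, and was highest in the medium one. The members compared were also longer in each table. Their median transcript lengths were 1812, 4707 and 5868 nt, against 1360, 2324 and 4234 nt of all transcripts. The part of length in these differences was not tested. Lengths of the 3′ UTR in GENCODE M1 do not always match the classes of the tables. Brd1-202, with a 3′ UTR of 1506 nt there, is in the short table. Chd5-201, with 3326 nt, is in both the short and the long one.

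Genes that work in the same complexes but have other symbols were listed as a comparison. Of 52 such genes 45 were measured, and of their 85 transcripts compared 9 were 1.5-fold higher and 7 lower in Tdrd6-/-, with a median ratio of 0.03. Their transcripts were shorter than the members', with a median of 1915 nt. Highest among the abundant ones was Phf10-001, of a PBAF subunit, with 13.2 and 28.3. Lowest were Dpf3-003, of a BAF subunit that reads histone tails, with 35.1 and 17.8, Bcl7c, also of BAF, with 215 and 136, and Epc1-003 and Kat5-203, of the TIP60 acetyltransferase complex, with 39.8 and 24.9 and with 26.0 and 16.3. The other transcripts past the bound were Mcrs1-202 (0.811 and 2.81), Mbtd1-002 (0.973 and 3.30), Mbtd1-001 (1.31 and 2.11), Mta3-002 (0.991 and 2.41), Ss18-204 (0.756 and 1.55), Cecr2 (1.28 and 2.15), Rbbp7-003 (1.51 and 2.34) and Brdt-001 on the higher side, and Bcl7b-003 (2.03 and 0.688), Tfpt (4.42 and 2.73) and Mta3-001 (2.54 and 1.61) on the lower. Some of these genes had a more abundant transcript that was not past the bound. Examples are Phf10-201 (44.9 and 41.0), Kat5-204 (70.5 and 63.9) and Mcrs1-201 (118 and 97.8). The partners past the bound made up 10.6% on the higher side and 8.24% on the lower, near the 7.96% and 8.78% of all transcripts. Of 20 other bromodomain genes 12 were measured, with 17 transcripts compared. Of these, 1 was 1.5-fold higher (Trim24-003, 4.00 and 7.43), or 5.88% against 7.96% of all. None was lower, against 8.78% of all. The median ratio of the 17 was 0.25 and their median length 4603 nt. All transcripts from 4000 to 6000 nt, where that length lies, had a median ratio of 0.25 too.

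The 26 member transcripts below the bound of 1 had FPKM of at most 1.20 in Tdrd6+/- and 1.06 in Tdrd6-/-. Among them 9 were past 1.5-fold higher (34.6%) and 4 lower (15.4%), with ratios from -1.75 to 3.18. Of all 4190 transcripts below that bound, 19.2% were 1.5-fold higher and 16.01% lower. Nothing is read from values of that size. The 26 include every listed transcript of Arid1b, Brwd3, Chd6 and Chd9. No listed transcript was found for Actl6b, Arid3c, Arid5a, Atrx, Chd7, Ino80d, Smarca1 and Smarcd3, which were not analysed here.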

How the data were processed

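RNA from hCD4-selected cells of 4 Tdrd6-/- and 4 Tdrd6+/- mice was sequenced. The labels describe poly-dT selection, and the study's methods removal of ribosomal RNA. Reads were aligned to mm9 with TopHat2 2.0.9 on Bowtie2 2.10, and transcripts were quantified with Cufflinks 2.1.1 and Cuffdiff, as the submitters' processing notes list. FPKM was deposited by the authors in 3 tables by 3′ UTR length, as 1 Cuffdiff value per genotype over its 4 libraries, scaled to transcript length and library size. Reads that fit several isoforms were divided by estimate, so isoform values depend on that step. The tables also hold the authors' fold changes, test statistics, p-values and q-values, which were not used. Depth cannot be read from FPKM, so the precision of a value is unknown.

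A transcript in several tables had the same values in each and was counted once (19882 entries). Ratios used a pseudocount of 0.1, a mean FPKM of at least 1, and a bound of 1.5-fold without a test. Coordinates, lengths and junctions came from GENCODE M1 on mm9, which held 108 of the 109 members (107 with a length). The study used another annotation, Ensembl release 67. Python 3.11.15, numpy 2.4.6, pandas 2.3.3 and matplotlib 3.10.9 were used, and the counting step was tested on simulated data. Values are given in full for member transcripts past 1.5-fold, the 10 most abundant, SNF2-type ATPases, paralog groups and genes with several transcripts. The members and lists were chosen with earlier results of these data known. Alternatives were other pseudocounts, filters, bounds, scalings and units. The values of 1 gene are not reported here.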

Additional observations from a re-analysis of the deposited data

How the results depend on the processing

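No paired analysis was possible because the deposited values are pooled over the animals of a genotype, and for the same reason no animal could be left out. The median ratio of the members stayed between 0.25 and 0.37 under all alternatives except equal sums of listed FPKM. That scaling and the sum per gene were chosen after seeing the data. Of 12 members that were 1.5-fold higher, the count became 7 of 83 with a pseudocount of 1 (8.43% against 4.46% of all), 21 of 109 without a filter (19.3% against 10.4%, with 4 lower), 5 of 40 at a mean FPKM of at least 5 (12.5% against 4.45%), 3 of 83 at 2-fold (3.61% against 2.06%), 43 of 83 at a looser bound of 0.32 on the log2 scale (with 3 lower), 4 of 47 with 1 transcript per gene (8.51% against 5.41%) and 6 of 49 for sums per gene.

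For complex partners outside the rule the counts were 5 higher and 5 lower of 85 with a pseudocount of 1. The shares of all transcripts were 4.46% and 6.16% there. At a mean FPKM of at least 5, 2 partners were higher and 4 lower, against 4.45% and 8.07% of all. At 2-fold 4 of 85 were higher and 1 lower, against 2.06% and 2.42% of all. With the looser bound 19 of 85 were higher and 17 lower, against 21.8% and 22.0% of all. For other bromodomain genes the counts were 2 higher and 1 lower of 24 transcripts without a filter, against 10.4% and 10.4% of all. At 2-fold 0 of 17 were higher, against 2.06% of all. With the looser bound 5 of 17 were higher and 1 lower, against 21.8% and 22.0% of all.

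Scaling to equal sums of listed FPKM adds 0.25 to 0.27 to the members' ratios and brings the median of all transcripts to 0.27. Then 43 members were 1.5-fold higher (50.6% against 22.1% of all) and none lower, with a median of 0.59, and 0.38, 0.65 and 0.63 in the short, medium and long tables. Partners had 21 higher and 2 lower, and other bromodomain genes 5 higher, where 22.1% of all transcripts were higher and 3.90% lower. Of the 23 members with a ratio below 0 as deposited, 16 were above 0 under that scaling and 7 were not. Under the alternatives, 185 of 191 values of the 22 transcripts that were past 1.5-fold or most abundant kept their sign. Other bounds, filters and pseudocounts could not change a sign, so this count says little about how stable the signs are. Every change came from scaling to equal sums, which moved Actl6a, Brd2-001, Ep400-003, Ino80e-002, Smarcb1-002 and Smarcd2-001 above 0. Of those below 0 as deposited, only Ino80c-003 stayed below 0, at -0.01.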
